A study of Mus musculus with 3 samples.

Results

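The genes of the proteasome were followed across 3 RNA libraries of C2C12 cells, a mouse myoblast line that was differentiated for 4 days. A gene belonged to the set when it had an mRNA row and a symbol of the Psma, Psmb, Psmc or Psmd series, or was one of the Psme genes, with the 3 immunoproteasome genes Psmb8, Psmb9 and Psmb10 left out. This rule uses symbols alone and found 40 of the 46316 gene symbols in the tables, and 38 of them were among the 13381 genes with a mean CPM (counts scaled to library size) of at least 1. The first group was wild-type cells (WT), the second was cells labelled Drp1 knockout (KO), and the third was Drp1 knockout cells transiently expressing FLAG-Drp1 (rescue). All 3 groups had the same myogenic differentiation, and each is 1 library, so no difference has a replicate check and every value describes these libraries. The labels do not say whether the KO cells are 1 clone or by what method Drp1 was disrupted. In RNA from a whole culture, fewer cells of a type and less RNA per cell cannot be told apart.

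The 26S proteasome is the cell's main machine for degrading proteins tagged with ubiquitin. Its 20S core is a barrel of alpha and beta rings, with the cutting sites inside on Psmb5, Psmb6 and Psmb7. The 19S cap binds the tagged protein, removes the ubiquitin and threads the chain into the barrel with a ring of ATPases. Activators of the Psme family can dock on the core in place of the cap, and in muscle the proteasome removes contractile proteins during atrophy. In mammalian cells the transcription factor NRF1 (Nfe2l1) is known to raise proteasome genes together, through antioxidant response elements in their promoters.

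Promoter sequences are shown for Psmb5 and Psmb6, which held such an element, and short sites are shown for Psmd9, Psme4 and Psme1. They come from RefSeq on GRCm38.p6, an older build than the GRCm39 of the counts, and 33 of the 40 members matched by symbol. Psmb7, the other catalytic gene, was among the 7 without an entry and was not searched. The element was searched as TGACNNNGC on both strands in the 300 bases from 250 before to 50 after each annotated start. It was found in 6 of the 33 genes (Psmb5, Psmb6, Psmc6, Psmd9, Psmd12 and Psme4). This was 6 of the 36 promoters listed for the 33 genes, beside 12.4% of all 32851 promoters of that length. The log2 ratios of KO against WT of these 6 genes ran from -0.60 (Psmd9) to 0.01 (Psme4), with Psmc6 at 0.00. The part of the element in these ratios was not tested. Capitals mark the match. The 250 bases upstream of Psmb5 (chr14:54617996-54618245, minus strand) and of Psmb6 (chr11:70525107-70525356, plus strand) are
Psmb5: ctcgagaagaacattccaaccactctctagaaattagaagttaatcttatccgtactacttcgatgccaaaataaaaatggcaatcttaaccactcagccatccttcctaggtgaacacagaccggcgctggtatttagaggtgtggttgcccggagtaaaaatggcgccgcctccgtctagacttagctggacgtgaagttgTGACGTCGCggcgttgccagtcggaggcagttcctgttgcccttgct
Psmb6: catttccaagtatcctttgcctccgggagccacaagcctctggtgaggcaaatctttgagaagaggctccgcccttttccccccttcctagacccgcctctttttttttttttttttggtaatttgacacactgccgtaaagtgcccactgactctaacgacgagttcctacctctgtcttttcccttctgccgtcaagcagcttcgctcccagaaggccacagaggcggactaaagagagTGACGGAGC
In Psmb5 the match began 47 bases before the start, and in Psmb6 it began 9 bases before the start. The 30-base sites in Psmd9 (chr5:123228149-123228178, plus strand) and Psme4 (chr11:30771758-30771787, plus strand), and a site in Psme1 (chr14:55578493-55578522, plus strand) that matches the interferon response motif (GAAA, any 2 bases, GAAA) on the opposite strand, are
Psmd9: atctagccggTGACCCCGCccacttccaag
Psme4: cgctgcggctGCAGCGTCAccagaagagcc
Psme1: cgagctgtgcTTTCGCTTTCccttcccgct
The interferon motif was found in 4 of the 33 genes (Psmb3, Psmd4, Psmd9 and Psme1) and 4 of their 36 promoters, beside 3.44% of all promoters. The CCAAT box, letters CCAAT on both strands, was found in 13 of the 33 genes. This was 13 of the 36 promoters, beside 37.4% of all promoters. The interferon gamma activated site, TTCNNNGAA, was found in Psmd2 alone among the 33 genes, 1 of the 36 promoters, beside 8.30% of all promoters. Overlapping matches were all counted, and the motifs were chosen after the counts had been seen. A match describes letters and is not evidence of binding.

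Gene counts summed to between 13790417 and 13925296 per library. Dnm1l, the gene of Drp1, had 1823 WT, 1284 KO and 1481 rescue counts, so its RNA was present, at a 1.39-fold lower level than in WT, in the library labelled KO (log2 ratio -0.48, interval -0.58 to -0.38). A count over the whole gene does not show whether the reading frame was disrupted. All 8 muscle markers (Myog, Ckm, Acta1, Des, Tnnt3, Myh3, Actn2 and Mymk) were detected in every library. In KO against WT they did not go one way: Ckm (-1.60), Actn2 (-2.46), Des (-0.47), Mymk (-0.24) and Tnnt3 (-0.22) were lower, and Myog (0.47), Myh3 (0.33) and Acta1 (0.22) were higher. All 8 were higher in rescue than in KO, beside 50.3% of all genes tested, with a median log2 ratio of 0.33. At least 1.2-fold higher were 6 of 8, beside 14.4% of all genes. The summed level of the 8 markers, mostly Acta1, Myh3 and Des, was 13731 CPM in WT, 14377 in KO and 17746 in rescue. Of 8 markers of immune, endothelial, epithelial and fat cells, 4 to 6 were at 0 in a library, and the highest count of any was 55, of Cd68 in KO. Pax7, a satellite cell marker, had at most 8 counts. The 4 myoblast markers together were at 860.2 CPM in WT, 316.8 in KO and 367.9 in rescue, which is mostly Cdh15. The part of the muscle and myoblast markers in the values below was not tested.

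Proteasome transcripts were less abundant in KO than in WT and lay between them or near WT in rescue. The 38 measured members held 83478 WT, 67453 KO and 78457 rescue counts. As a share of all gene counts this was 0.601% in WT (Wilson 95% interval 0.597 to 0.605), 0.489% in KO (0.485 to 0.493) and 0.563% in rescue (0.559 to 0.567). These intervals, like those of the log2 ratios below, cover counting error only. The summed level was 1.22-fold lower in KO than in WT (log2 ratio -0.28, interval -0.30 to -0.27). Rescue exceeded KO by 1.17-fold (log2 ratio 0.22, interval 0.21 to 0.24), which left it 1.04-fold below WT.

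The small difference was shared by most members. In KO against WT 34 of 38 lay below 0, beside 49.9% of all genes tested, and 23 of 38 were at least 1.2-fold lower, beside 26% of all genes. Only 1 member, Psme1, was at least 1.2-fold higher, beside 27.2% of all genes. With a trend of the ratio on transcript length subtracted, the count at least 1.2-fold lower was 8 of 38, beside 23.3% of all genes, a share near the background. No member reached 2-fold in either direction, where 4.07% of all genes were lower and 5.34% higher. The median log2 ratio was -0.30 over the members and 0.00 over all genes tested. The counting interval lay wholly below 0 for 32 members, beside 29.3% of all genes, and wholly above 0 for 2 (Psme1 and Psmd2), beside 29%. For Psmd2 its lower end was only 0.01, so its place there depends on the scaling of the libraries. The KO library was the lowest of the 3 for 34 of 38 members, beside 34.3% of all genes. WT was the highest for 22, beside 39.9%, and the lowest for 3, beside 41%.

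**Figure D1:**
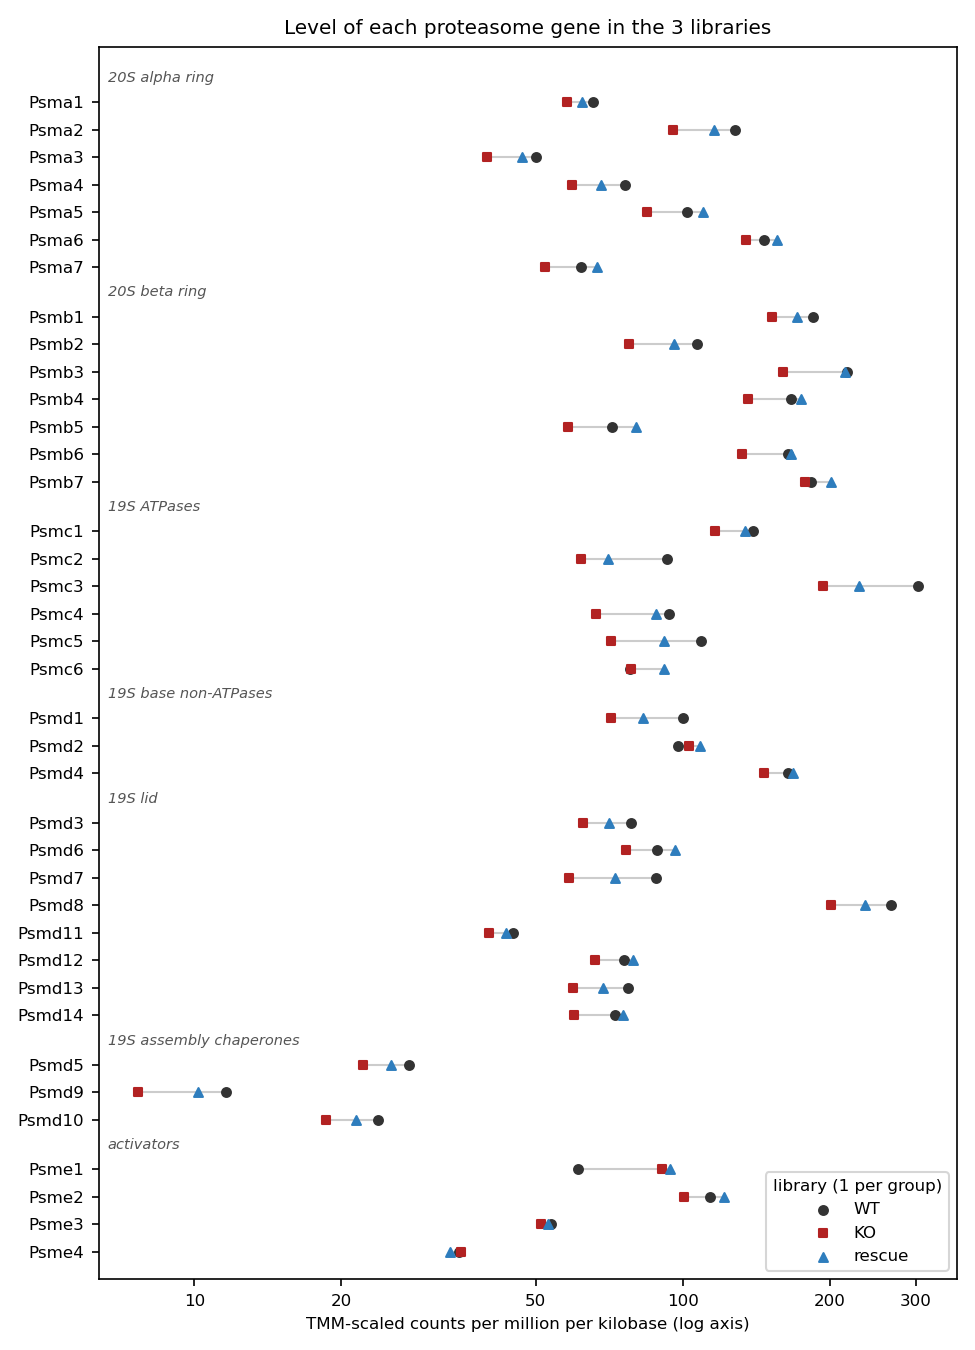
Level of each of the 38 measured proteasome genes in WT (circles), KO (squares) and rescue (triangles), 1 library each, as CPM per kilobase of transcript (TMM-scaled) on a log axis, grouped by role. The KO square is the leftmost symbol for 34 genes, while Psme1 has its WT circle far to the left.

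Levels per length differed among members far more than between libraries. In WT the 31 subunits of the 26S particle ranged from 45.0 (Psmd11) to 303.0 (Psmc3) CPM per kilobase, a 6.74-fold range, with a median of 97.7. The same range was 5.08-fold in KO and 5.43-fold in rescue. Its low end depends on the annotated length of the chosen row. Psmd11 was measured on a row of 2962 bases with 1871 WT counts, and a row of 1743 bases held 1642. The assembly chaperones stood lower, with Psmd9 lowest of all members at 11.6 in WT, 7.66 in KO and 10.2 in rescue. Across the 38 members, the log2 levels per length correlated between KO and WT with a Pearson r of 0.97 and a Spearman rho of 0.94. That is a description across genes, whose lengths are shared between libraries. The order of the subunits was thus largely kept.

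In the alpha ring, which forms the outer gate of the core, all 7 measured genes were lower in KO than in WT. Of all genes tested 49.9% were lower. The log2 ratios ran from -0.42 for Psma2 to -0.13 for Psma6, with a median of -0.27. At least 1.2-fold lower were 4 of 7, beside 26% of all genes. With the length trend removed the median was -0.11, and Psma3 alone (-0.27) was at least 1.2-fold lower. That value of Psma3 rests on its longest row. Its 930-base row had a log2 ratio of -0.28 before the trend was removed. Coding genes of 206 to 990 bases had a median of -0.23. Psma2 had 1697 WT, 1243 KO and 1508 rescue counts. Psma5 had 1742, 1419 and 1843, so that its rescue library was the highest of the 3 (log2 ratio 0.38 against KO, interval 0.28 to 0.48). Psma1 differed least between rescue and KO of the alpha genes, with 1153, 1005 and 1074 counts and a log2 ratio of 0.10 (interval -0.03 to 0.22). Psma3, Psma4 and Psma7 lay between -0.36 and -0.24 in KO against WT and between 0.20 and 0.35 in rescue against KO. Per length, Psma6 was the most abundant alpha gene in WT (146.9 CPM per kilobase) and Psma3 the least (50.1). The level of Psma3 uses its row of 2398 bases, with 1688 WT counts. A row of 930 bases held 1531 of them, so this low rank depends on the row. Psma8, the testis form of an alpha subunit, had 0 counts in all 3 libraries, which allows up to 3 counts in each.

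The beta ring carries the cutting sites. All its measured genes but Psmb7, 6 of 7, were at least 1.2-fold lower in KO than in WT, beside 26% of all genes. The median log2 ratio was -0.30, and -0.09 with the length trend removed. Psmb2 was then the lowest beta gene, at -0.25, which is short of 1.2-fold. Psmb5, the chymotrypsin-like subunit whose promoter is shown above, had 877 WT, 700 KO and 960 rescue counts. KO lay below WT by 1.23-fold (-0.30 on the log2 scale, interval -0.45 to -0.15). Rescue lay above KO by 1.37-fold (0.46 on the log2 scale, interval 0.32 to 0.60). With the length trend removed that ratio was 0.23, below those of Psmd9 (0.36) and Psmc4 (0.26). Psmb6, the caspase-like subunit, had 2119, 1670 and 2108 counts, with rescue at the level of WT (log2 ratio 0.02, interval -0.07 to 0.11). Psmb7, the trypsin-like subunit, had 2491, 2374 and 2679 counts and was not resolved from WT in KO (log2 ratio -0.04, interval -0.13 to 0.04, and 0.15 with the length trend removed). The 3 catalytic genes therefore did not share 1 ratio, and the interval of Psmb7 overlapped neither that of Psmb5 nor that of Psmb6 in KO against WT.

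Of the beta genes without a cutting site, Psmb2 and Psmb3 were furthest below WT. Psmb2 had 1269 WT, 906 KO and 1119 rescue counts (log2 ratio of KO against WT -0.46, interval -0.59 to -0.34). Psmb3 had 2226, 1614 and 2161, so that KO stood alone below the other two. Psmb1 (-0.28) and Psmb4 (-0.29) were nearer the median of the ring, with rescue above KO by 0.17 and 0.36. Psmb3 was the most abundant beta gene per length in WT (216.8 CPM per kilobase), and Psmb5 was the least (71.7). Psmb11, the thymus form, had 2 WT counts and 0 in either knockout library, too few for a ratio. Summed over the 14 core genes, KO was 1.21-fold below WT, and the rescue level equalled that of WT within counting error (log2 ratio 0.00, interval -0.02 to 0.03).

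The ATPases unfold the substrate and open the core. Of the 6, 4 were at least 1.2-fold lower in KO than in WT, beside 26% of all genes. Psmc3 and Psmc5 had the lowest ratios of the 38 members. Psmc3 had 6956 WT, 4370 KO and 5163 rescue counts, 1.56-fold lower in KO (log2 ratio -0.65, interval -0.70 to -0.59). Psmc5 had 1956, 1254 and 1606 counts (-0.62, interval -0.72 to -0.51). Psmc2 had 2337, 1529 and 1731 (-0.59, interval -0.68 to -0.49). For these 3 genes WT was the highest library and KO the lowest, and rescue was nearer KO for Psmc2 and Psmc3. Psmc4 had 1890, 1317 and 1744 counts, with rescue back near WT (log2 ratio -0.09, interval -0.18 to 0.01). Psmc1 had 2942, 2410 and 2772, a smaller difference in KO (-0.26).

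The remaining ATPase, Psmc6, did not follow the others. It had 2570 WT, 2532 KO and 2952 rescue counts. The log2 ratio was 0.00 in KO against WT (interval -0.08 to 0.08) and 0.23 in rescue against WT (interval 0.15 to 0.31). The 6 genes encode a ring with 1 copy of each ATPase. Their ratios of KO against WT thus spread from -0.65 to 0.00, with a median of -0.54. In rescue against WT they spread from -0.40 for Psmc2 to 0.23 for Psmc6. Summed, the ATPases were 1.37-fold lower in KO than in WT and still 1.15-fold lower in rescue (log2 ratio -0.20, interval -0.23 to -0.17).

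The large base scaffolds Psmd1 and Psmd2 went separate ways. Psmd1 had 4567 WT, 3195 KO and 3722 rescue counts (KO against WT -0.49, interval -0.56 to -0.42). Psmd2 had 4562, 4716 and 4970 (0.07, interval 0.01 to 0.13). Their WT counts were nearly equal, yet in KO they stood on opposite sides of that level. Their transcripts are of similar length, 3256 and 3325 bases. Psmd4, a ubiquitin receptor, had 3033, 2656 and 3045 counts, lower in KO by less than 1.2-fold.

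All 8 measured lid genes were lower in KO than in WT, beside 49.9% of all genes, with a median log2 ratio of -0.30. At least 1.2-fold lower were 5 of 8, beside 26% of all genes. With the length trend removed the median was -0.19, and Psmd7 alone (-0.46) was at least 1.2-fold lower. Psmd7, the partner of the lid's deubiquitinase, had 1978 WT, 1293 KO and 1597 rescue counts (-0.59, interval -0.69 to -0.49). Psmd14, the deubiquitinase itself, had 1573, 1274 and 1600 (-0.28, interval -0.39 to -0.17), and rescue matched WT within counting error (0.05, interval -0.05 to 0.15). The intervals of these partner genes did not overlap in KO against WT. Psmd8 had 5655, 4206 and 4919 counts and was the most abundant lid gene per length, at 266.2 CPM per kilobase in WT. The lid gene with the smallest difference was Psmd11, with 1871, 1641 and 1775 counts (-0.16). The lid genes Psmd3, Psmd6, Psmd12 and Psmd13 lay between -0.38 and -0.20 in KO against WT and between 0.17 and 0.33 in rescue against KO. In rescue against WT the lid split, with Psmd6 highest at 0.12 and Psmd7 lowest at -0.28.

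Chaperones of cap assembly were lower in KO too. Psmd9 had 423 WT, 274 KO and 363 rescue counts. Its log2 ratio of KO against WT was -0.60 with a wide interval of -0.83 to -0.38. Psmd10, known as gankyrin, had 460, 354 and 406 counts, and Psmd5 had 776, 614 and 698. All 3 were at least 1.2-fold lower in KO than in WT, beside 26% of all genes. With the length trend removed this held for Psmd9 alone, at -0.54. In each of the 3, rescue lay between KO and WT.

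Over the 4 activator genes the median was -0.03 (KO against WT, log2 scale). None was at least 1.2-fold lower, beside 26% of all genes. Psme1 encodes the alpha subunit of PA28, an activator that interferon is known to induce. It had 836 WT, 1224 KO and 1266 rescue counts, so both knockout libraries lay above WT. Psme1 was 1.49-fold higher in KO than in WT (log2 ratio 0.58, interval 0.45 to 0.70), and rescue did not differ from KO beyond counting error (0.05, interval -0.06 to 0.17). The macrophage marker Cd68 was also higher in both knockout libraries, with 22, 55 and 42 counts, while the leukocyte marker Ptprc had 0 in all 3, and their part in the Psme1 values was not tested. Psme2, the beta subunit of the same ring and a close neighbour in the genome, had 1434, 1242 and 1497 counts. KO was its lowest library, as for the core genes (KO against WT -0.18, interval -0.29 to -0.07). With the length trend removed that ratio was 0.02. The ratio of Psme1 to Psme2 per length was accordingly 0.535 in WT, 0.905 in KO and 0.776 in rescue.

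Emc9 overlaps Psme1 in the RefSeq annotation, and no source used here gives the strand setting of the counting. Emc9 had 107 WT, 131 KO and 130 rescue counts, and its part in the Psme1 values was not tested. Psme3, the nuclear PA28 gamma, had 2005, 1881 and 1944 counts (KO against WT -0.07, interval -0.16 to 0.02). Psme4, the large activator PA200, had 3145, 3120 and 2965 (0.01, interval -0.06 to 0.09). Neither was resolved from WT in KO. In rescue against KO, Psme4 was at -0.07 (interval -0.14 to 0.00).

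**Figure D2:**
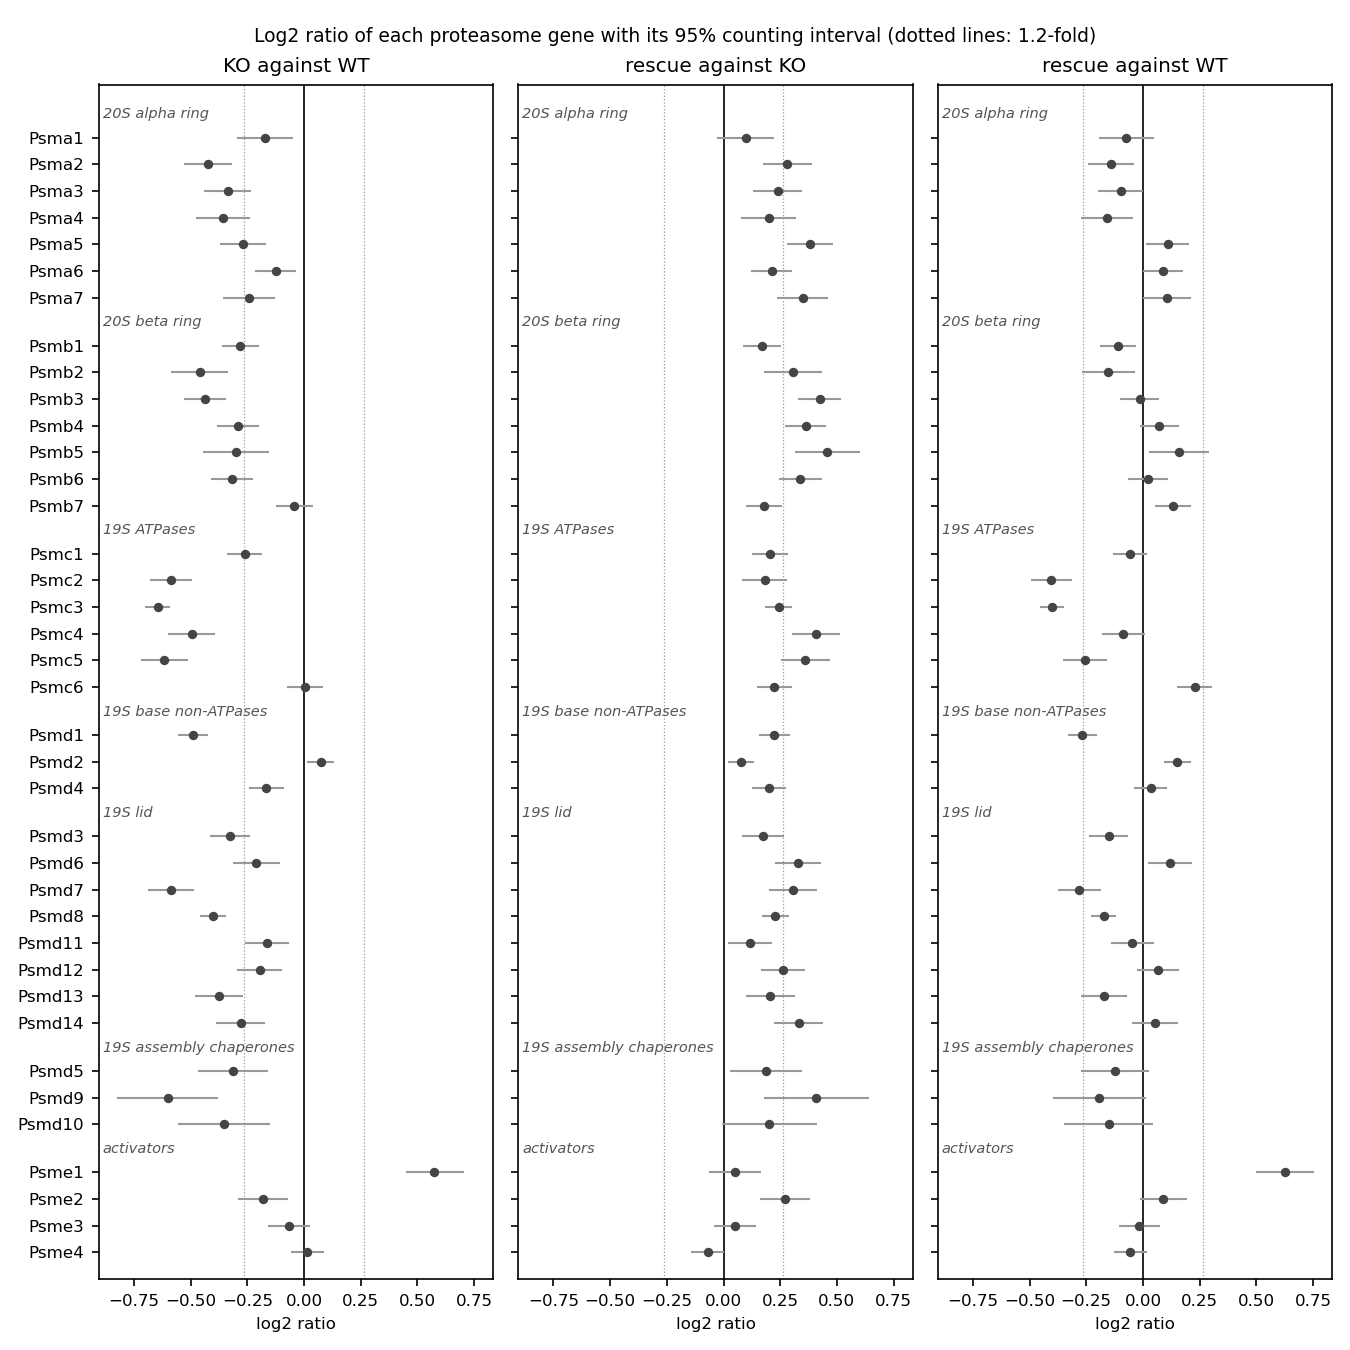
Log2 ratio of each proteasome gene in KO against WT, rescue against KO and rescue against WT, with exact 95% counting intervals as bars and dotted lines at 1.2-fold. Most points lie left of 0 in the first panel (34 of 38) and right of 0 in the second (37 of 38), and Psme1 stands apart at 0.58 and 0.63 in the panels of KO and rescue against WT.

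In rescue against KO, 37 of 38 members lay above 0, beside 50.3% of all genes tested. At least 1.2-fold higher were 15 of 38 members, beside 14.4% of all genes, but 1 of 38 with the length trend removed, beside 9.92%. No member was 1.2-fold lower, beside 13.6%. The 1 member below 0 was Psme4, beside 49.7% of all genes. The counting interval lay wholly above 0 for 33 members and wholly below 0 for none, beside 17.7% of all genes in either direction. No member reached 2-fold, which 1.3% of all genes did upward and 0.575% downward. The median log2 ratio was 0.23, beside 0.00 for all genes. The highest were Psmb5 (0.46), Psmb3 (0.42), Psmd9 (0.41), Psmc4 (0.41) and Psma5 (0.38). By role, the beta ring had a median of 0.34 and the ATPases one of 0.23, but with the length trend removed these were 0.12 and 0.14. The lowest were Psme4 (-0.07), Psme3 (0.05), Psme1 (0.05), Psmd2 (0.08) and Psma1 (0.10). This comparison shares the KO library with that of KO against WT, so 1 KO value enters both.

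In rescue against WT the members lay on both sides. Below 0 were 23 of 38, beside 49% of all genes, and above it 15, beside 51%. The interval lay wholly below 0 for 12, beside 25.4%, and wholly above 0 for 7, beside 26.9%. No member reached 2-fold, which 3.06% of all genes did downward and 4.59% upward. Further, 4 of 38 were at least 1.2-fold lower, beside 21.9%. These were Psmc2 (-0.40), Psmc3 (-0.40), Psmd7 (-0.28) and Psmd1 (-0.27), all of the cap, and Psmc5 followed at -0.26. Psme1 (0.63, interval 0.50 to 0.75) was the member at least 1.2-fold higher, beside 24.5% of all genes. Next highest were Psmc6 (0.23), Psmb5 (0.16), Psmd2 (0.15) and Psmb7 (0.13). KO below rescue below WT was the order for 22 of 38 members, beside 24.3% of all genes, and for the other 12 of the 34 with KO lowest, rescue was the highest.

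**Figure D3:**
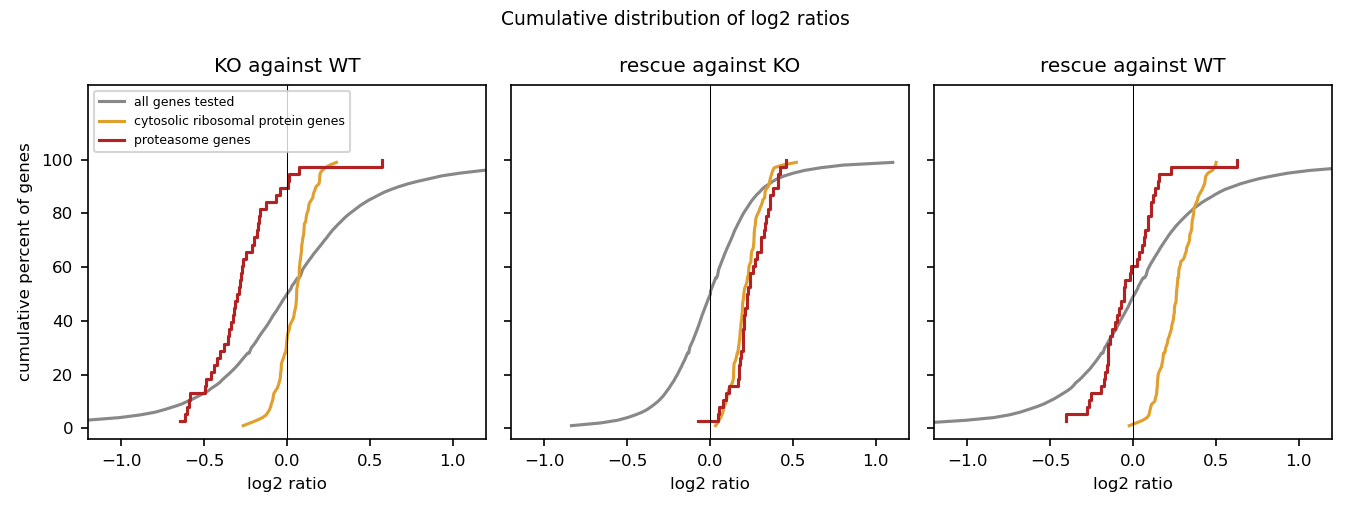
Cumulative percent of genes against the log2 ratio for the 38 proteasome genes, the 80 measured cytosolic ribosomal protein genes and all 13381 genes tested, in the 3 comparisons. The proteasome curve lies left of the ribosomal one in KO against WT (medians -0.30 and 0.06), close to it in rescue against KO (0.23 and 0.20) and left of it in rescue against WT (-0.06 and 0.26).

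Cytosolic ribosomal protein genes, another set for a large complex with short transcripts, gave other values for KO against WT. Their median log2 ratio over 80 measured genes was 0.06, with 1 gene at least 1.2-fold lower and 2 higher. For the proteasome it was -0.30, with 23 of 38 lower. Of all genes 26% were lower and 27.2% higher by that fold. In rescue against KO the ribosomal median was 0.20, with 25 of 80 at least 1.2-fold higher, beside 14.4% of all genes. With 1 library per group the difference between the sets was not tested.

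Transcript length moved with these ratios. The median member transcript was 1469 bases long, beside 3160 for all genes tested, and short transcripts as a class were lower in KO. Coding genes of 206 to 990 bases with at least 100 mean counts had a median of -0.23 for the log2 ratio of KO against WT. Those of 991 to 1333 bases had one of -0.19, and those of 1333 to 1638 bases one of -0.14. In rescue against KO the medians of these length classes, shortest first, were 0.26, 0.20 and 0.14. The trend fitted over such coding genes had a median of -0.14 at the lengths of the members. With the trend subtracted, the median member ratio was -0.12 in KO against WT, beside 0.02 for all genes, and 32 of 38 members lay below 0, beside 47.7% of all genes. The count at least 1.2-fold lower was then 8 of 38.

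The trend bore unequally on the roles. After it was subtracted the ATPases kept a median of -0.40 in KO against WT, the lid -0.19, and the alpha and beta rings -0.11 and -0.09. The members still at least 1.2-fold lower were Psmd9 (-0.54), Psmc3 (-0.52), Psmc2 (-0.48), Psmd1 (-0.46), Psmd7 (-0.46), Psmc5 (-0.45), Psmc4 (-0.35) and Psma3 (-0.27). Of these 8, 4 are ATPases and none is a catalytic subunit. Psma3 is among them on its row of 2398 bases, and its place depends on that row length. Psme1 stood higher after the subtraction, at 0.77, and was again the 1 member at least 1.2-fold higher, beside 27.8% of all genes. In rescue against KO the median was 0.10 in place of 0.23, and Psmd9 (0.36) was the 1 member at least 1.2-fold higher, beside 9.92% of all genes. For the ribosomal protein genes the subtracted medians were 0.25 (KO against WT) and -0.03 (rescue against KO).

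**Figure D4:**
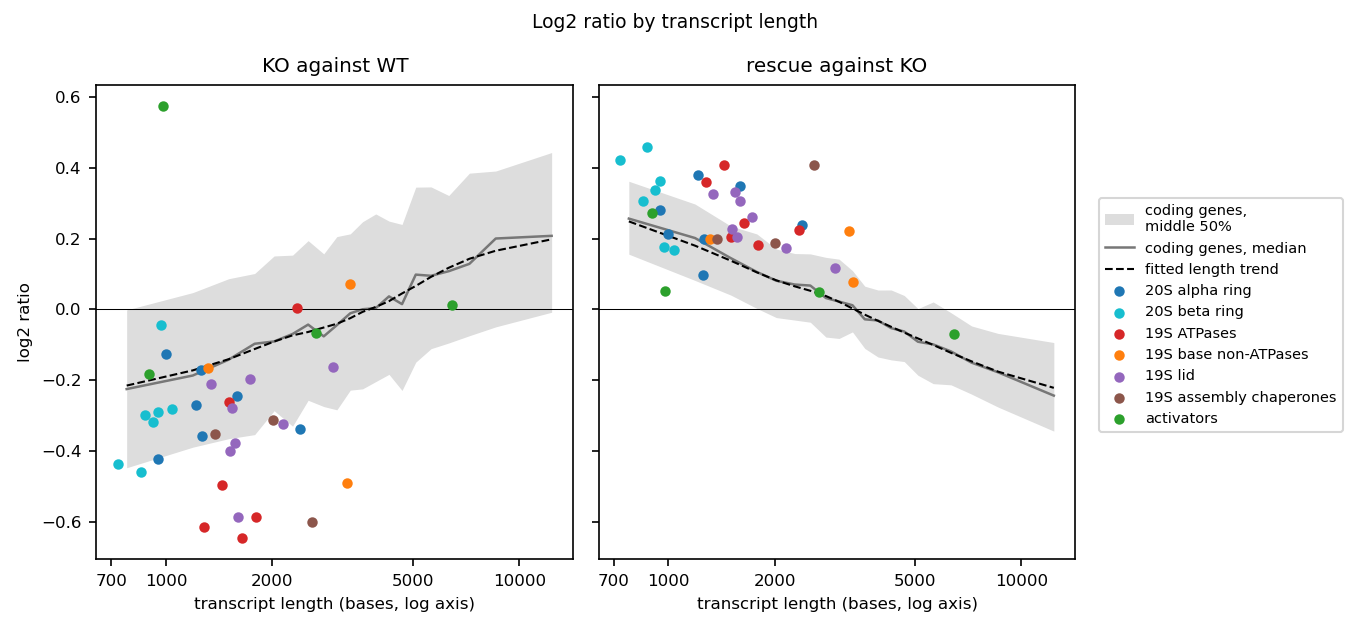
Log2 ratio against transcript length in bases (log axis) for the 38 proteasome genes, coloured by role, over the median (grey line), the middle 50% (grey band) and the fitted trend (dashed) of coding genes with at least 100 mean counts. Short coding genes lie below 0 in KO against WT and above 0 in rescue against KO, and 5 of the 6 ATPases lie below the trend line in the first panel by more than 0.1.

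Other genes of the system were taken from lists chosen by function. Of 5 measured assembly chaperones with other symbols, 1 was at least 1.2-fold lower in KO, beside 26% of all genes. This was Pomp, which matures the core, with 1004 WT, 615 KO and 778 rescue counts (KO against WT -0.68, interval -0.83 to -0.54). The chaperones Psmg1, Psmg2, Psmg3 and Psmg4 lay between -0.11 and 0.19, all with intervals spanning 0. Paaf1 is not analysed here. Among 15 associated proteins 3 were at least 1.2-fold lower and 1 higher, beside 26% and 27.2% of all genes, so neither share was above the background. Adrm1, a ubiquitin receptor of the cap, had 1593, 1071 and 1341 counts (-0.55), and Rad23b, a shuttle for tagged proteins, had 6437, 5073 and 5294 (-0.32). Txnl1, a redox protein of the cap, was at -0.27. Zfand5, a zinc finger protein that stimulates the proteasome, was the higher one, with 1552, 2647 and 2337 counts (0.80, interval 0.70 to 0.89).

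Of 10 genes of the NRF1 pathway, 4 were at least 1.2-fold lower and 2 higher in KO than in WT, beside 26% and 27.2% of all genes, so as a list they did not stand far from the background. Nfe2l1 itself had 8731 WT, 10871 KO and 10190 rescue counts, higher in KO by 1.27-fold (log2 ratio 0.34, interval 0.30 to 0.38). Vcp, the ATPase that extracts NRF1 from the endoplasmic reticulum, had 8726, 5633 and 5827 (-0.61, interval -0.65 to -0.56). Ngly1, which removes its glycans, had 415, 279 and 279 (-0.55). Sel1l, of the ligase complex that marks NRF1 for degradation, had 2412, 3454 and 2657 (0.54). Vcp and Ngly1 were thus as low in rescue as in KO, while most proteasome subunits were not. Their rows are longer, 3315 and 2901 bases, beside a median of 1469 for the members. With the length trend removed the median member ratio of rescue against KO was 0.10. The part of length in this contrast was not tested.

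Among 6 ubiquitin and E1 genes, 1 was at least 1.2-fold lower in KO, beside 26% of all genes. This was Ubb, with 10196 WT, 8259 KO and 9285 rescue counts (-0.28). Uba6 and Rps27a were at 0.22 and 0.20. Of 4 muscle ubiquitin ligases, Fbxo32 (atrogin-1) had 1765, 2663 and 2523 counts (0.62), Trim63 (MuRF1) had 438, 430 and 569, Fbxo30 was at 0.05, and Fbxo40 had 153, 21 and 68 (-2.81, interval -3.57 to -2.18). Of the immunoproteasome genes, Psmb8 had 36 WT, 145 KO and 99 rescue counts, 4.06-fold higher in KO, but per length it reached only 0.148 of the level of Psmb5 in KO. Psmb10 had 588, 392 and 483 counts, lower in KO, and Psmb9 had at most 5.

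The choice of transcript row mattered little for the log2 ratios before the length trend was removed. For 21 of the 38 measured members the tables held 1 mRNA row, and in the other 17 the row with the fewest counts held 99.7% of those of the highest (median). The largest spread of the log2 ratio of KO against WT between rows of a gene was 0.10, in Psme4. Its shortest row, of 5309 bases, had 2033 WT, 2146 KO and 1936 rescue counts. Levels per length and ratios with the length trend removed also depend on the length of the chosen row. Row lengths ran from 930 to 2398 bases for Psma3 and from 1743 to 2962 bases for Psmd11. Proteasome genes have processed copies in the genome, and no source used here says how reads that align to several places were treated. Psma5-ps, a listed copy, had 112, 92 and 134 counts, so the values of Psma5 are uncertain by that kind of sharing. In the RefSeq annotation 11 of the 40 members overlap another gene, among them Psma3, Psmd1, Psmd10 and Psme4.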

How the data were processed

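Per the labels' protocols, TRIzol was used for RNA and a DNBSEQ-G400RS kit for the libraries. Reads were trimmed with cutadapt 1.9.1, aligned with HISAT2 2.2.1 and counted with featureCounts 2.0.0 on GRCm39, per the submitters' processing notes. No source used here gives their settings. Each deposited table gives a raw read count per transcript row, with RPKM and TPM columns deposited by the authors beside it. RPKM was not used, and the TPM values deposited by the authors served 1 alternative.

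The row with the highest count over the 3 libraries stood for each gene. Library sizes were adjusted by TMM (edgeR 4.0.16, R 4.3.3), 0.5 was added, and log2 ratios were taken with exact conditional (Clopper-Pearson) 95% intervals. The low-count filter was a mean of 1 CPM. A fold of 1.2 or 2 was counted as higher or lower, and with 1 library per group no test was made. The length trend was a loess fit (span 0.3, statsmodels 0.14.6) over coding genes with at least 100 mean counts. The ratio step was checked on simulated counts. Full values were given for Psmb5, Psmb6, Psmb7, Psmd14, the Psme genes, the 5 highest and 5 lowest ratios of each comparison, and the highest and lowest level per length of a role. Up to 4 genes were named per other list. The members, lists and alternatives were chosen with earlier results of these data known.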

Additional observations from a re-analysis of the deposited data

How the results depend on the processing

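No paired analysis was possible because each group is 1 library. The alternatives were DESeq2 size factors, total counts, no low-count filter, summed or lowest mRNA rows, 5 added counts and the length trend removed. The deposited TPM ratios and the 26S subunits alone were added after the data were seen. The sign of the median member ratio stayed the same under all of these, and no member past 1.2-fold changed sign. Members below 0 in KO against WT were 34 in the main setting, 35 with DESeq2 size factors and 36 with total counts. The median ranged from -0.31 to -0.12 in KO against WT, from 0.10 to 0.24 in rescue against KO and from -0.11 to -0.06 in rescue against WT. With the length trend removed the medians were -0.12 and 0.10 in the first and second of these, 8 members were at least 1.2-fold lower in KO than in WT and 1 was at least 1.2-fold higher in rescue than in KO. With TPM the medians were -0.25, 0.13 and -0.11, and 7 members were at least 1.2-fold higher in rescue than in KO. The all-gene medians of the TPM ratios were themselves 0.04, -0.09 and -0.05. Without the filter 1 member, Psmb11 with 2 counts, was at least 2-fold lower in KO and in rescue than in WT (1 each). The share of the library was 0.217%, 0.179% and 0.208% in WT, KO and rescue with rows summed, and 0.649%, 0.530% and 0.608% with the lowest rows, since the library totals change with the rows. Other causes of these shifts were not tested. Depth limited Psmd9 most, whose counting interval in KO against WT ran from -0.83 to -0.38.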
